A study of Mus musculus with 5 samples.

Results

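The cells described here were 273 progenitors of the mouse rhombic lip libraries that carried transcripts of Otx2 and Wls. They were chosen from deposited expression values by a gate on 5 genes. Sox2, Otx2 and Wls had to be detected (a value above 0, which is at least 1 unique molecular identifier, UMI) and Msx3 and Barhl1 had to be undetected. The gate was met by 273 of 4311 cells in 4 rhombic lip (RL) libraries, out of 6987 cells in all. They were set against 1054 cells of the same 4 libraries with Sox2 and Msx3 detected and Otx2 and Barhl1 undetected, called Msx3 progenitors. The cells that met the first gate are called Otx2/Wls cells.

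The study profiled single cells of embryonic mouse cerebellum with 10x Chromium chemistry, to trace where Group 3 and Group 4 medulloblastoma begin. Its RL libraries, titled UT, were 2 at embryonic day 14 (e14) and 2 at day 13 (e13), and a single EomesCreER library at e16 served as a side value. The title of RL e13 replicate 2 and its age label (e14) disagree, and the libraries were grouped by title. The labels name neither strain, RL genotype, the embryos per library nor the meaning of UT, so p-values may measure technical spread between libraries.

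The roof plate is a strip of epithelium along the dorsal midline of the neural tube that secretes Wnt and BMP proteins and patterns the tissue beside it. In the hindbrain it lies next to the rhombic lip, the germinal zone of the glutamatergic neurons of the cerebellum, and it also gives rise to the epithelium of the choroid plexus. Wls carries Wnt proteins to the cell surface so that they can be secreted. Otx2 is a homeodomain transcription factor of the forebrain, midbrain, choroid plexus and caudal rhombic lip, and it is a driver gene in medulloblastoma.

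Levels below are CPM, UMIs scaled to a total of 1000000, averaged over the cells of a class in a library, in the order e14 replicate 1, e14 replicate 2, e13 replicate 1 and e13 replicate 2 wherever 4 values follow each other. Otx2 stood at 423, 368, 264 and 354 CPM in Otx2/Wls cells and at 0 in Msx3 progenitors by the gate. Wls, which the second gate did not use, stood at 447, 442, 529 and 502 CPM in Otx2/Wls cells and 117, 127, 166 and 154 CPM in Msx3 progenitors, and 83.7% of Msx3 progenitors had a Wls UMI. Sox2, the neural progenitor factor, was detected in both classes by rule, at 359, 349, 272 and 334 CPM in Otx2/Wls cells and 611, 657, 438 and 563 CPM in Msx3 progenitors. These levels chose the cells and carry no test. A gene that goes with the gate genes from cell to cell also differs between the classes because of the gate.

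At the edge of the gate, 35 of the 273 cells had a single Otx2 UMI, and 98 cells met the gate except that Otx2 was at 0. The cells with 1 Otx2 UMI had 60.3 CPM of Rspo1, 39.2 CPM of Rspo2, 40.3 CPM of Msx1 and 2296 CPM of Fabp7. In the cells with Otx2 at 0 these levels were 299, 2.44, 171 and 4362 CPM. The 98 cells came mainly from the e13 libraries, with 1, 7, 47 and 43 cells per library. Further neighbours were 39 cells with 1 Msx3 UMI, 56 with 2 or more Msx3 UMIs, 291 with Barhl1, 15 without Sox2 and 7 without Wls. Wnt1, Rspo1, Lmx1a and Msx2 were at 162, 79.3, 33.2 and 219 CPM in Otx2/Wls cells with 2 or more Otx2 UMIs. The cells with 1 Msx3 UMI were close, at 191, 109, 41.4 and 187 CPM, as were those without Sox2, at 111, 127, 52.3 and 222 CPM. Rspo2 was lower in both, at 9.20 and 22.5 CPM against 53.9 CPM. Cells with Barhl1 had 12.9, 3.49, 7.61 and 53.6 CPM of the former genes. The levels in this paragraph are means over the cells of all 4 libraries, which the classes mix unequally. Cells with 2 or more Otx2 UMIs numbered 77, 18, 34 and 109 per library. Those with 1 Msx3 UMI numbered 4, 0, 23 and 12, and those without Sox2 4, 2, 3 and 6. The part of this mix in the levels was not tested.

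In the e13 libraries, where both kinds were numerous, the Otx2/Wls cells and the cells with Otx2 at 0 carried different levels of several secreted factors. Rspo1 stood at 89.1 CPM in Otx2/Wls cells and 285 CPM in Otx2-negative cells of replicate 1, and at 80.6 and 371 CPM in those classes of replicate 2. Wnt1 ran the other way, with 294 and 104 CPM in replicate 1 and 132 and 41.0 CPM in replicate 2. So did Rspo2, with 12.3 and 1.57 CPM in replicate 1 and 45.3 and 3.83 CPM in replicate 2. Wnt3a was higher in Otx2-negative cells, with 29.5 and 57.2 CPM in replicate 1 and 15.2 and 22.4 CPM in replicate 2. Rspo3 stood at 0.966 and 68.2 CPM in replicate 1 and 24.9 and 24.0 CPM in replicate 2. The share of cells with an Rspo1 UMI was close, with 21 of 42 Otx2/Wls cells and 48.9% of Otx2-negative cells in replicate 1 and 28.2% and 25.6% in replicate 2. Lmo2, a LIM-domain adaptor protein, was at 143 CPM in Otx2/Wls cells and 9.51 CPM in Otx2-negative cells of replicate 1, and at 77.7 and 1.25 CPM in replicate 2. These values describe the threshold and were not tested.

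Otx2/Wls cells numbered 86 of 1046 cells (8.22%, Wilson 95% interval 6.71 to 10.0) in e14 replicate 1 and 21 of 741 (2.83%, 1.86 to 4.29) in e14 replicate 2. They numbered 42 of 706 (5.95%, 4.43 to 7.94) in e13 replicate 1 and 124 of 1818 (6.82%, 5.75 to 8.07) in e13 replicate 2. The e14 libraries held the highest and the lowest share, on either side of both e13 libraries. The mean share was 5.53% ± 3.81 (SD, n = 2) at e14 and 6.38% ± 0.616 (SD, n = 2) at e13, with p = 1 in a two-sided exact permutation test whose smallest possible p is 0.333. Counted among the Sox2-positive, Barhl1-negative cells, the share was 41.0% and 16.4% in the e14 libraries and 6.93% and 20.8% in the e13 libraries, a mean of 28.7% ± 17.4 (SD, n = 2) at e14 and 13.9% ± 9.79 (SD, n = 2) at e13 (exact permutation p = 0.667). Intervals cover counting error only, and how the tissue was dissected can set these shares. Without e14 replicate 2 the difference of e14 minus e13 turned to 1.84 percentage points.

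Otx2/Wls cells had more UMIs per cell than the cells they were compared with. Their median was 17392, 18640, 20169 and 18674 UMIs per cell, against 13816, 14935, 18244 and 15154 in Msx3 progenitors. The 4 RL libraries held 706 to 1818 cells and 13607965 to 33502151 UMIs. 3 cell barcodes were shared between RL libraries, and 0 Otx2/Wls cells carried one.

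The label roof plate-like was checked against genes that the gate did not use. Msx1, Hes1 and Rspo1 are markers used to name these cells, so their values describe the label. Msx1, a homeodomain target of BMP signals, stood at 32.1, 86.6, 168 and 44.2 CPM in Otx2/Wls cells and 1.91, 0, 34.6 and 2.16 CPM in Msx3 progenitors. Hes1, a transcriptional repressor of boundary and midline cells, stood at 154, 227, 149 and 204 CPM in Otx2/Wls cells and 63.5, 96.3, 52.3 and 100.3 CPM in Msx3 progenitors. Both were higher in Otx2/Wls cells in each of the 4 libraries. The Hes1 ranges of the classes did not overlap, while the Msx1 ranges did because of e13 replicate 1. Lmx1a, the homeodomain factor that specifies the roof plate, was detected in 39.9% of Otx2/Wls cells, 8.82% of Msx3 progenitors and 10.0% of 1380 RL cells with Barhl1 and without Sox2. Median depth was 18484, 16221 and 17606 UMIs in those classes.

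Lmx1b, Bmp6 and Bmp7 of the roof plate list were sparse. Lmx1b ranged over 0 to 12.7 CPM in Otx2/Wls cells and 0 to 1.37 CPM in Msx3 progenitors. The BMP ligands Bmp6 and Bmp7 ranged over 3.17 to 6.47 and 0 to 5.06 CPM in Otx2/Wls cells, and over 0.141 to 0.892 and 0.202 to 4.83 CPM in Msx3 progenitors. Gdf7, the ligand that marks the roof plate, was not analysed here. Roof plate transcription factors and Wnt genes were present in these cells, and Bmp6 and Bmp7 were at a few CPM. The bHLH factor Atoh1, which marks the rhombic lip, was detected in 41.8% of them.

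The comparison of Otx2/Wls cells with Msx3 progenitors asked which genes differ between these classes in the same libraries. It was made on the log2(CPM + 5) scale with limma, with the library as a block, over 8389 genes outside the gate. limma called 229 genes (2.73%) higher and 341 genes (4.06%) lower in Otx2/Wls cells at an adjusted p under 0.05, 570 (6.79%) in all. The median log2 difference of all genes tested was -0.02. These shares over all genes are the background for the list counts below, and no list was tested as a set. Values of the classes did not overlap over the 4 libraries for 664 genes (7.92%). The number of calls depended on the libraries, with 243 calls without e14 replicate 1, 850 without e13 replicate 1 and 239 without e13 replicate 2. The classes differ by construction in the gate genes and in whatever goes with them, which applies to each call below.

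Wnt ligands of the dorsal midline were high in Otx2/Wls cells. Wnt1, the ligand of the midbrain-hindbrain boundary and dorsal midline, stood at 145, 139, 294 and 132 CPM in Otx2/Wls cells and 6.32, 2.89, 25.1 and 4.21 CPM in Msx3 progenitors. Its ranges were far apart, and the log2 difference was 3.78 ± 0.16 (SE, limma adjusted p = 1.01e-05). Wnt9a stood at 51.1, 77.2, 37.5 and 32.0 CPM in Otx2/Wls cells and 0.538, 2.96, 7.08 and 2.46 CPM in Msx3 progenitors, also without overlap, with a log2 difference of 2.71 ± 0.28 (limma adjusted p = 4.27e-04). Wnt3a, a roof plate ligand, was below the filter of 10 CPM over both classes and was not tested, at 10.6, 14.5, 29.5 and 15.2 CPM in Otx2/Wls cells and 0 to 6.13 CPM in Msx3 progenitors. The ligands Wnt3 and Wnt5a were lower in Otx2/Wls cells. Wnt5a, a ligand known for signalling without beta-catenin, stood at 42.5 to 84.7 CPM in Otx2/Wls cells and 90.8 to 124 CPM in Msx3 progenitors (log2 difference -1.02 ± 0.16, limma adjusted p = 0.00441). The Wnt3 difference was -0.64 ± 0.14 (limma adjusted p = 0.0231) and was no longer called in 6 of 18 alternative settings. Of 13 Wnt ligands listed, 4 were tested, 2 were higher and 2 were lower, with a median log2 difference of 1.03.

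R-spondins are secreted proteins that amplify Wnt signals by removing the ubiquitin ligases Znrf3 and Rnf43 from the cell surface. Rspo2 stood at 75.0, 76.2, 12.3 and 45.3 CPM in Otx2/Wls cells and 1.55, 0, 0.213 and 0.166 CPM in Msx3 progenitors (log2 difference 3.16 ± 0.34, limma adjusted p = 5.75e-04). Rspo1, a marker used to name the cells, stood at 63.2, 87.0, 89.1 and 80.6 CPM in Otx2/Wls cells and 1.17, 0.453, 18.9 and 13.6 CPM in Msx3 progenitors, a log2 difference of 2.93 ± 0.32. Neither range overlapped, and e13 replicate 1 was the lowest library for Rspo2 and the highest for Rspo1. Rspo3 did not pass the test. It stood at 78.2, 40.6, 0.966 and 24.9 CPM in Otx2/Wls cells and 0, 0.826, 6.91 and 0.435 CPM in Msx3 progenitors (log2 difference 2.12 ± 0.65, limma adjusted p = 0.0999), with the Otx2/Wls cells of e13 replicate 1 below the Msx3 progenitors of that library. Of the 9 R-spondin genes, receptors and ubiquitin ligases listed, 4 were tested, 2 were higher and 0 lower, with a median of 2.53. Znrf3 stood at 28.7, 18.1, 18.3 and 32.4 CPM in Otx2/Wls cells and 38.0, 39.2, 29.9 and 37.2 CPM in Msx3 progenitors (limma adjusted p = 0.112). The receptors Lgr4, Lgr5 and Lgr6 were at low levels and were not tested, with 0 to 2.03 CPM of Lgr5 in Otx2/Wls cells and 0.374 to 9.44 CPM in Msx3 progenitors.

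**Figure D1:**
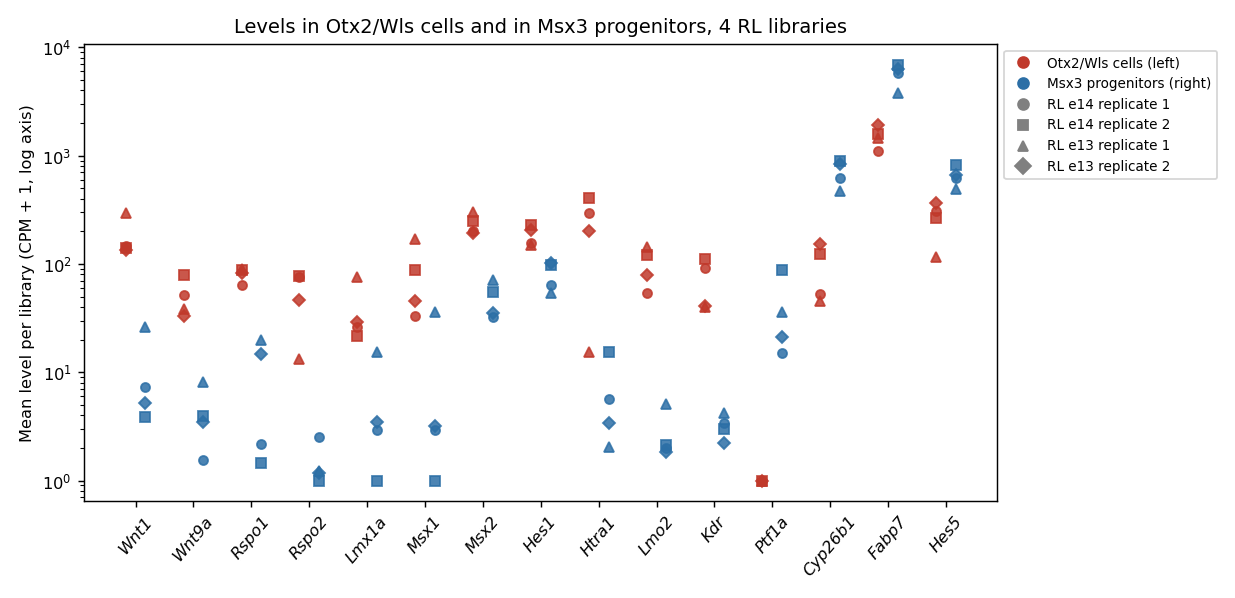
Mean level of 15 genes (vertical axis, CPM + 1 on a log axis) in Otx2/Wls cells (left, red) and Msx3 progenitors (right, blue) of the 4 RL libraries, 1 symbol shape per library and no error bars. Wnt1 is at 132 to 294 CPM in Otx2/Wls cells and 2.89 to 25.1 CPM in Msx3 progenitors, and Fabp7 at 1102 to 1897 and 3793 to 6894 CPM in those classes.

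Wnt1, Rspo1 and Msx1 stood higher in Otx2/Wls cells than in Msx3 progenitors. In the e13 libraries, however, mean Rspo1 and Msx1 were higher still in cells with Otx2 at 0. Msx1 stood at 297 and 59.0 CPM in those cells and 168 and 44.2 CPM in Otx2/Wls cells. An Msx1 UMI was found in fewer of those cells, 46.8% and 18.6% against 69.0% and 32.3%. The 250 bases before a start of each gene and of Otx2 in the RefSeq promoter table (GRCm38.p6) were read. They were searched on both strands for TAATCC, the core bound by OTX proteins, and TAATTA, a core bound by many homeodomain proteins. The windows are given 5′ to 3′ on the gene's strand with matches in capitals. Windows that overlapped an exon of the GENCODE annotation were left out by rule. The table gives several starts for Otx2, and the first listed whose window passed this rule was taken. A longer GENCODE transcript of Otx2 begins further upstream, so that this window lies in its intron. The Otx2 window lies at chr14:48667645-48667894 (minus strand), Wnt1 at chr15:98789607-98789856 (plus strand), Rspo1 at chr4:124986180-124986429 (plus strand) and Msx1 at chr5:37824586-37824835 (minus strand).
Otx2: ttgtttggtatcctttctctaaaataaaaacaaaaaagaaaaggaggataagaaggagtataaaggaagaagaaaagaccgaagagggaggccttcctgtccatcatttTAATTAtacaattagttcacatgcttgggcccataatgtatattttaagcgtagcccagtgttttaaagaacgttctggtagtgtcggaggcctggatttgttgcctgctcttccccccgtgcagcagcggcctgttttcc
Wnt1: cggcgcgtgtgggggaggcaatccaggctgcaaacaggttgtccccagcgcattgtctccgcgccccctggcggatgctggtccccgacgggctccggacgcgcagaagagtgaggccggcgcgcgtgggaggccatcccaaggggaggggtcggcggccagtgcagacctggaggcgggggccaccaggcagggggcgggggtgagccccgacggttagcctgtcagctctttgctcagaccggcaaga
Rspo1: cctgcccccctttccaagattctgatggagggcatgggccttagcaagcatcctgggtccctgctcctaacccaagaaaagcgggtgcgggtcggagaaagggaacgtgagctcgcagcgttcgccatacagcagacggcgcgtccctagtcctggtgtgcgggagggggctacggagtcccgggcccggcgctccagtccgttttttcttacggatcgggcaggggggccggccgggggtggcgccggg
Msx1: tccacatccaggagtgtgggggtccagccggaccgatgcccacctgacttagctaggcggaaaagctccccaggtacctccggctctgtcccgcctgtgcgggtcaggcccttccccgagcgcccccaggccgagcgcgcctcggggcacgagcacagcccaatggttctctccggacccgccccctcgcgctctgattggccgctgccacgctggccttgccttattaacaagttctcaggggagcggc
TAATCC was in none of these windows, and TAATTA was in the Otx2 window alone among the 4. Of 32851 promoter windows of that length, 6.25% held TAATCC and 4.84% held TAATTA. Among roof plate genes, 11 of 16 had a promoter in the table, of which 0 windows held TAATCC and 1, of Msx2, held TAATTA. A match describes letters in the window and is no binding site.

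The Wnt receptors Ror2 and Fzd10 were higher, and Wnt targets were called in both directions. The receptor tyrosine kinase Ror2, which binds Wnt5a, stood at 34.3, 35.3, 9.99 and 33.6 CPM in Otx2/Wls cells and 2.13, 0.669, 0.504 and 1.88 CPM in Msx3 progenitors (log2 difference 2.31 ± 0.26, limma adjusted p = 7.39e-04). Frizzled 10 (Fzd10) was higher by 0.63 ± 0.09 on the log2 scale (limma adjusted p = 0.00240), at 220.4 to 339 CPM in Otx2/Wls cells and 147 to 199 CPM in Msx3 progenitors. Of 9 Wnt receptors tested 2 were higher and 0 lower, with a median log2 difference of -0.18. Among 9 Wnt targets tested, 1 was higher and 3 were lower, with a median of -0.03. The target that was higher was Sp5, a zinc finger factor, at 216, 139, 62.4 and 176 CPM in Otx2/Wls cells and 31.3, 30.9, 40.8 and 29.6 CPM in Msx3 progenitors (log2 difference 1.89 ± 0.28, limma adjusted p = 0.00357). Axin2, the feedback inhibitor most often read as a Wnt target, stood at 109, 136, 155 and 171 CPM in Otx2/Wls cells and 99.0, 92.7, 151 and 118 CPM in Msx3 progenitors and did not pass (limma adjusted p = 0.163). The targets that were lower were Tcf7l2 (-0.80), Tnfrsf19 (-0.84) and the cyclin Ccnd1 (-1.85). The Wnt inhibitors divided, with 1 higher and 2 lower of 5 tested. Dkk3, a secreted Dickkopf family protein, was higher at 93.8 ± 55.4 CPM in Otx2/Wls cells and 21.0 ± 6.92 CPM in Msx3 progenitors (SD, n = 4 libraries each; limma adjusted p = 0.00130).

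BMP targets divided as well. Msx2, a homeodomain target of BMP signals, stood at 199, 248, 301 and 191 CPM in Otx2/Wls cells and 31.4, 54.0, 69.6 and 34.6 CPM in Msx3 progenitors without overlap (log2 difference 2.23 ± 0.11, limma adjusted p = 1.29e-05). Id1 and Id4, direct BMP targets that hold back differentiation, were not higher. Id1 stood at 623, 405, 1086 and 712 CPM in Otx2/Wls cells and 779, 781, 1020.3 and 746 CPM in Msx3 progenitors (limma adjusted p = 0.262), and Id4 was lower, by a log2 difference of -0.67 ± 0.17 (limma adjusted p = 0.0473), a call lost in 12 of 17 alternative settings. Of 9 BMP targets tested, 2 were higher and 1 was lower, and the median log2 difference was 0.44. None of 5 BMP receptors tested was called (median -0.15), and Bmpr1a stood at 90.9 ± 9.18 CPM in Otx2/Wls cells and 101 ± 4.55 CPM in Msx3 progenitors (SD, n = 4 libraries each). The secreted BMP inhibitor Nog was higher, at 60.9, 80.6, 88.7 and 44.7 CPM in Otx2/Wls cells and 25.3, 38.3, 38.0 and 24.8 CPM in Msx3 progenitors (log2 difference 0.99 ± 0.13, limma adjusted p = 0.00140). Gdf10, a BMP family ligand of radial glia, was lower, by a log2 difference of -1.17 ± 0.21 (limma adjusted p = 0.00998), a call lost in 4 of 18 alternative settings.

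**Figure D2:**
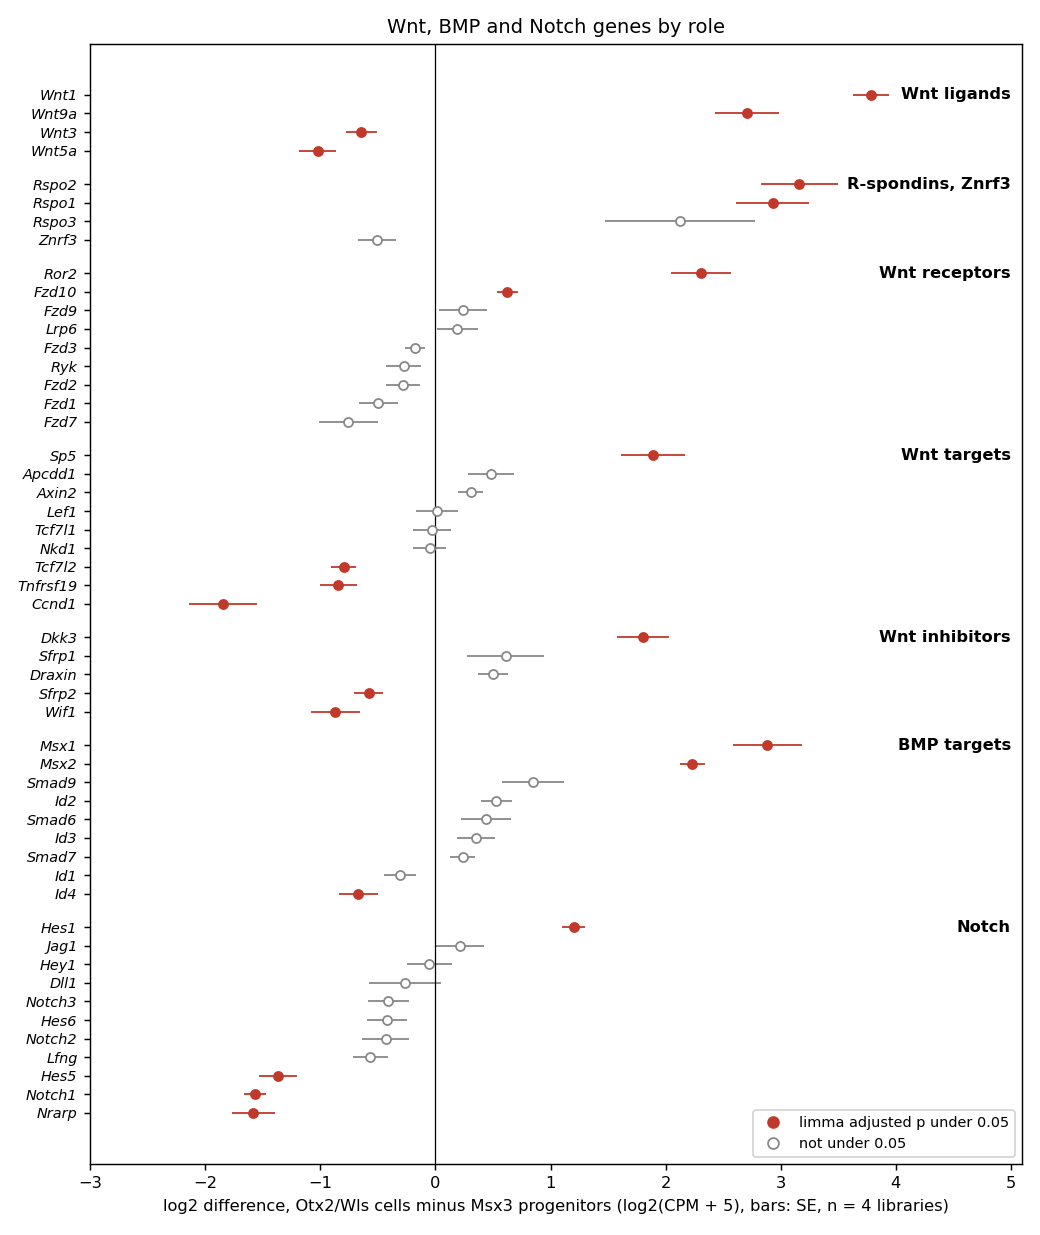
Log2 difference of Otx2/Wls cells minus Msx3 progenitors (horizontal axis, log2(CPM + 5)) for tested Wnt, R-spondin, BMP target and Notch genes, with bars for 1 SE over 4 libraries and filled points for a limma adjusted p under 0.05. Wnt1 (3.78), Rspo2 (3.16) and Msx2 (2.23) lie to the right, and Ccnd1 (-1.85) and Notch1 (-1.57) to the left. Id3, which is also on the Notch list, is drawn once.

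The roof plate list gave 7 higher and 0 lower genes of 10 tested, with a median log2 difference of 2.20, and 2 of the 7 (Msx1 and Rspo1) are markers used to name the cells. Lmx1a was among them, at 25.2, 20.8, 74.4 and 27.8 CPM in Otx2/Wls cells and 1.93, 0, 14.4 and 2.47 CPM in Msx3 progenitors (log2 difference 2.17 ± 0.18, limma adjusted p = 1.45e-04). Its highest library in both classes was e13 replicate 1. Zic1 and Zic4, zinc finger factors of the dorsal neural tube and cerebellum, were not called. Zic1 stood at 686 ± 49.8 CPM in Otx2/Wls cells and 775 ± 108 CPM in Msx3 progenitors (SD, n = 4 libraries each). Lmx1a and Msx1 were not called once cycling cells (Mki67 or Top2a detected) were left out, a setting that leaves 2 libraries.

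Among the other genes with the 10 highest log2 differences, several are known from other tissues. Htra1, a secreted serine protease, stood at 296, 403, 14.5 and 202 CPM in Otx2/Wls cells and 4.64, 14.3, 1.05 and 2.38 CPM in Msx3 progenitors (log2 difference 3.97 ± 0.46, limma adjusted p = 8.08e-04). Its lowest library in Otx2/Wls cells was e13 replicate 1, close to the highest value in Msx3 progenitors. Lmo2 stood at 53.3, 119, 143 and 77.7 CPM in Otx2/Wls cells and 0.988, 1.15, 4.12 and 0.826 CPM in Msx3 progenitors (log2 difference 3.87 ± 0.20, limma adjusted p = 1.29e-05). Kdr, the receptor for vascular endothelial growth factor, stood at 91.0, 109.9, 39.0 and 39.7 CPM in Otx2/Wls cells and 2.36, 1.97, 3.21 and 1.22 CPM in Msx3 progenitors (log2 difference 3.25 ± 0.27, limma adjusted p = 1.38e-04). Both Lmo2 and Kdr were higher in Otx2/Wls cells without overlap in the 4 libraries. The remaining 3 were Palmd, a paralemmin family protein (3.11), Cntnap2, a cell adhesion protein of the neurexin family (3.00), and Npnt, the matrix protein nephronectin (2.52), with limma adjusted p of 3.32e-05, 2.00e-04 and 0.00121.

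Kdr is a marker of endothelium, and the other endothelial genes were at or near 0. Cldn5 and Rgs5 had 0 UMIs in Otx2/Wls cells, and Pecam1 ranged over 0 to 0.693 CPM in Otx2/Wls cells and 0 to 0.518 CPM in Msx3 progenitors. The summed level of 6 endothelial and pericyte genes was 43.3 to 118 CPM in Otx2/Wls cells and 8.20 to 12.2 CPM in Msx3 progenitors, and Kdr alone averaged 69.9 ± 36.1 CPM in Otx2/Wls cells (SD, n = 4 libraries). Sums over 7 meningeal genes were 7.92 to 14.1 CPM in Otx2/Wls cells and 2.52 to 5.83 CPM in Msx3 progenitors, with Col3a1 and Foxc1 at 0 in Otx2/Wls cells. Pdgfra, a growth factor receptor on that list, accounted for 1.81 to 10.7 CPM in Otx2/Wls cells and 0 to 0.591 CPM in Msx3 progenitors. Sums over 6 microglial genes were 0 to 2.11 CPM in Otx2/Wls cells and 0 to 2.32 CPM in Msx3 progenitors. Sums over 6 red blood cell genes were 10.9 to 41.2 CPM in Otx2/Wls cells and 6.50 to 69.6 CPM in Msx3 progenitors. Oligodendrocyte lineage sums (4 genes) were 7.09 to 15.2 CPM in Otx2/Wls cells and 8.95 to 18.1 CPM in Msx3 progenitors, and neural crest sums (3 genes) were 7.09 to 15.4 and 7.54 to 17.7 CPM in those classes.

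Rhombic lip genes were mixed. Cdon, a co-receptor for hedgehog proteins that is also on the rhombic lip list, stood at 191, 219, 255 and 184 CPM in Otx2/Wls cells and 22.5, 19.6, 132 and 24.3 CPM in Msx3 progenitors (log2 difference 2.41 ± 0.30, limma adjusted p = 0.00129). It was higher in each library, by least in e13 replicate 1. Pax6, a paired homeodomain factor of the upper rhombic lip, stood at 239, 153, 219 and 171 CPM in Otx2/Wls cells and 111, 136, 60.9 and 82.7 CPM in Msx3 progenitors (limma adjusted p = 0.0183). It was called higher, and the call was lost with no filter, without e14 replicate 1 and without e13 replicate 2. Atoh1 stood at 135, 22.1, 236 and 93.0 CPM in Otx2/Wls cells and 37.2, 32.5, 75.4 and 37.8 CPM in Msx3 progenitors and did not pass (limma adjusted p = 0.0941). The bHLH factor Olig3 stood at 18.9, 1.47, 129 and 30.9 CPM in Otx2/Wls cells and 4.33, 1.37, 73.3 and 8.74 CPM in Msx3 progenitors (limma adjusted p = 0.0663), and e13 replicate 1 was the highest library in both classes. The chemokine receptor Cxcr4 was lower, by a log2 difference of -0.65 ± 0.11 (limma adjusted p = 0.00937), a call lost in 6 of 18 alternative settings. Of 5 rhombic lip genes tested, 2 were higher and 1 was lower, with a median of 1.003. Of 4 granule cell progenitor genes tested, 0 were higher and 1, Mfap4, was lower. Barhl2, a homolog of the gate gene Barhl1, ranged over 0 to 2.65 CPM in Otx2/Wls cells and 0 to 0.280 CPM in Msx3 progenitors. Eomes, the marker of unipolar brush cells and their precursors, was detected in 1 Otx2/Wls cell and 6 Msx3 progenitors.

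Ptf1a and Kirrel2, genes of the GABAergic ventricular zone, were lower. Ptf1a, the bHLH factor that commits cells to GABAergic fates, had 0 UMIs in 273 Otx2/Wls cells, which allows a share of cells with a UMI of up to 1.10%, and 472 UMIs in 129 Msx3 progenitors. Pooled over the cells of each class, it was at least 46.7-fold lower, with 3 UMIs over the 273 cells as the floor. This pool weights libraries by their cells, and e13 replicate 1 gave 469 of 1054 Msx3 progenitors and 42 of 273 Otx2/Wls cells. The fold carries no test. A separate estimate, with the library as a block, was a log2 difference of -2.87 on the log2(CPM + 5) scale (limma adjusted p = 0.00105). The adhesion protein Kirrel2 stood at 15.2, 24.3, 10.6 and 13.8 CPM in Otx2/Wls cells and 68.5, 145, 122 and 59.8 CPM in Msx3 progenitors (log2 difference -2.26 ± 0.20, limma adjusted p = 2.05e-04). The Notch ligand Dll1 was at 25.9, 4.67, 34.9 and 24.4 CPM in Otx2/Wls cells and 13.8, 24.3, 42.2 and 23.3 CPM in Msx3 progenitors and was not called. Msx3, the gene that chose the comparison cells, is itself a gene of dorsal ventricular zone progenitors.

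Radial glial genes were lower in Otx2/Wls cells, with 0 higher and 11 lower of 14 tested and a median log2 difference of -1.12. Fabp7, the lipid-binding protein of radial glia, stood at 1102, 1571, 1447 and 1897 CPM in Otx2/Wls cells and 5848, 6894, 3793 and 6277 CPM in Msx3 progenitors (log2 difference -1.91 ± 0.13, limma adjusted p = 5.13e-05). Ednrb, an endothelin receptor, stood at 21.5, 50.8, 13.5 and 19.2 CPM in Otx2/Wls cells and 301, 479.5, 61.7 and 233 CPM in Msx3 progenitors (log2 difference -2.95 ± 0.24, limma adjusted p = 1.27e-04). Both genes were lower in each library, without overlap of the classes. Sox9, the glial and progenitor factor, was lower, by a log2 difference of -1.20 ± 0.08 (limma adjusted p = 3.71e-05), and Sox1, a close relative of Sox2, by -2.91 ± 0.18 (limma adjusted p = 3.71e-05). Vim, the intermediate filament of neural progenitors, differed least among the 11, by -0.51 ± 0.06 (limma adjusted p = 6.24e-04), and remained at 2323 to 4115 CPM in Otx2/Wls cells and 2879.9 to 5953 CPM in Msx3 progenitors. Other genes among the 10 lowest were the folate enzyme Aldh1l1 of astroglia (-2.92), the serine protease Prss23 (-2.86), the calcium-binding protein Pvalb (-2.70), the peptide transporter Abcb9 (-2.65) and the glutamate receptor Grm3 (-2.67). Grm3 was no longer called in 4 of 17 alternative settings, among them leaving out e14 replicate 1 or e13 replicate 2.

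Within the Notch pathway Hes1 and Hes5, repressors that Notch signalling can activate, ran in opposite directions. Hes1 differed by 1.20 ± 0.10 on the log2 scale and is a marker used to name the cells, while Hes5 stood at 306, 264, 116 and 367 CPM in Otx2/Wls cells and 618, 815, 489.5 and 656 CPM in Msx3 progenitors (log2 difference -1.37 ± 0.17, limma adjusted p = 0.00118). The receptor Notch1 stood at 67.7, 75.4, 59.2 and 73.3 CPM in Otx2/Wls cells and 206, 265, 190.2 and 198 CPM in Msx3 progenitors (log2 difference -1.57 ± 0.10, limma adjusted p = 3.34e-05), and the feedback target Nrarp was lower, by a log2 difference of -1.58 ± 0.19 (limma adjusted p = 9.44e-04). Of 12 Notch genes tested, 1 was higher and 3 were lower, with a median of -0.41. The call of Hes5 and that of Nrarp were lost without cycling cells.

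Etv5, Spry2 and Dusp6, which respond to FGF signals, were lower. The transcription factor Etv5 stood at 1.52, 0, 1.55 and 5.25 CPM in Otx2/Wls cells and 35.2, 39.8, 11.8 and 41.1 CPM in Msx3 progenitors (log2 difference -2.33 ± 0.29, limma adjusted p = 0.00118). Spry2, an intracellular inhibitor induced by FGF signals, was lower, by a log2 difference of -1.70 ± 0.11 (limma adjusted p = 3.87e-05) and the phosphatase Dusp6 by -1.19 ± 0.18 (limma adjusted p = 0.00433). The receptor Fgfr2 was higher, at 66.4, 71.0, 84.3 and 80.1 CPM in Otx2/Wls cells and 29.4, 20.7, 44.3 and 26.2 CPM in Msx3 progenitors (log2 difference 1.23 ± 0.15, limma adjusted p = 0.00104). The related Spry1 stood at 23.5, 48.2, 12.3 and 24.3 CPM in Otx2/Wls cells and 14.9, 18.7, 21.8 and 23.7 CPM in Msx3 progenitors and was not called. Over the list, 1 was higher and 4 were lower of 8 tested, with a median of -0.55.

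Cyp26b1 and Dhrs3, enzymes of retinoid metabolism, were lower. Cyp26b1, which degrades retinoic acid, stood at 51.6, 123, 44.7 and 152 CPM in Otx2/Wls cells and 626, 882, 468 and 827 CPM in Msx3 progenitors (log2 difference -2.98 ± 0.15, limma adjusted p = 1.29e-05). Dhrs3, which reduces retinaldehyde, was lower, by a log2 difference of -1.45 ± 0.10 (limma adjusted p = 3.87e-05). In midbrain and hindbrain patterning, 1 of 9 genes tested was higher and 7 were lower, with a median of -0.50. The homeodomain genes Irx1 and Irx2 were lower, by a log2 difference of -1.03 ± 0.09 and -1.21 ± 0.10 (limma adjusted p = 2.05e-04 and 1.51e-04), and Meis2 was the gene that was higher (1.01 ± 0.23, limma adjusted p = 0.0295, lost in 6 of 17 alternative settings). Of 8 hedgehog genes tested only Cdon was called. Of 8 cilia genes 1 was lower, the tubulin-binding protein Tppp3 (-1.37 ± 0.15, limma adjusted p = 7.39e-04). Both lists rest on a single call, where 6.79% of all genes were called.

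Of 30 S, G2 and M phase genes 2 were called, near the share over all genes (6.79%). Mki67 stood at 172, 163, 253 and 257 CPM in Otx2/Wls cells and 187, 127, 261 and 208 CPM in Msx3 progenitors (limma adjusted p = 0.564). None of 15 genes of the G2 and M phases was called (median 0.25), and of 15 S phase genes 2 were higher and 0 lower (median 0.27). After thinning every cell to 8000 UMIs, Mki67 was detected in 51.9% of Otx2/Wls cells and 44.3% of Msx3 progenitors, and before it in 61.5% and 50.9% of those classes. The D cyclins divided. Ccnd2 stood at 1067, 416, 431 and 658 CPM in Otx2/Wls cells and 164, 91.9, 472 and 110.2 CPM in Msx3 progenitors (log2 difference 1.80 ± 0.38, limma adjusted p = 0.0214, lost in 5 of 18 settings), and e13 replicate 1 was the library in which it was not higher. Ccnd1 stood at 100.3, 117, 19.8 and 64.6 CPM in Otx2/Wls cells and 327, 283, 239 and 154 CPM in Msx3 progenitors (log2 difference -1.85 ± 0.29, limma adjusted p = 0.00522). The cell cycle inhibitor Cdkn1c was lower, by a log2 difference of -1.41 ± 0.17 (limma adjusted p = 0.00118), as was the antiproliferative gene Btg1, by -1.29 ± 0.17 (limma adjusted p = 0.00199). None of 9 neuronal differentiation genes tested was called (median -0.37).

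Of 14 tested genes that are altered or active in Group 3 and Group 4 medulloblastoma, 3 were higher and 2 lower in Otx2/Wls cells, with a median of -0.14. Over all genes 2.73% were higher and 4.06% lower. The receptor tyrosine kinase Erbb4 stood at 98.4, 116, 122 and 118 CPM in Otx2/Wls cells and 51.8, 54.1, 61.8 and 62.4 CPM in Msx3 progenitors (log2 difference 0.93 ± 0.10, limma adjusted p = 5.66e-04). Mycn was higher by 0.45 ± 0.09 (limma adjusted p = 0.0167, not followed through the alternative settings). The transcriptional corepressor Runx1t1 was higher by 0.89 ± 0.17 (limma adjusted p = 0.0124, lost in 7 of 17 settings). Cdk6, a cyclin-dependent kinase, was lower, by a log2 difference of -1.29 ± 0.13 (limma adjusted p = 4.01e-04), and Sncaip by -0.69 ± 0.16 (limma adjusted p = 0.0351). Myc ranged over 0 to 8.18 CPM in Otx2/Wls cells and 4.93 to 16.9 CPM in Msx3 progenitors and was not tested. Of 8 immediate early genes tested, which respond to dissociation, Junb was higher and Jun and Jund were lower, and Fos stood at 963, 1049, 597 and 835 CPM in Otx2/Wls cells and 832, 1305, 371 and 965 CPM in Msx3 progenitors.

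Of the choroid plexus genes, Folr1, Calml4 and Igfbp2 were higher in Otx2/Wls cells, and Ttr came almost wholly from a single cell. Ttr, the thyroid hormone carrier secreted by that epithelium, was detected in 2 Otx2/Wls cells, both in e14 replicate 2. One of them held 4043 Ttr UMIs, 20.1% of its 20137 UMIs, and was the single cell of the RL libraries above 1000. That cell also had 11 UMIs of Folr1, 24 of Calml4 and 6 of Enpp2, 11 of Otx2, 1 of Sox2 and 0 of Mki67, Wnt1 and Rspo2. Ttr was at 0, 9565, 0 and 0 CPM in Otx2/Wls cells and 1.76, 5.37, 0.151 and 1.97 CPM in Msx3 progenitors (limma adjusted p = 0.459). The folate receptor Folr1 was higher, at 36.5, 36.7, 9.93 and 12.0 CPM in Otx2/Wls cells and 0, 0, 0.289 and 0.161 CPM in Msx3 progenitors (limma adjusted p = 0.00225), and was detected in 24.9% of Otx2/Wls cells, 0.285% of Msx3 progenitors and 2.61% of Barhl1-positive cells. Calml4, a calmodulin-like protein, was higher by 1.61 ± 0.26 (limma adjusted p = 0.00615) and the growth factor-binding protein Igfbp2 by 0.70 ± 0.14 (limma adjusted p = 0.0150), each lost in 4 alternative settings. The phospholipase Enpp2 was lower, by a log2 difference of -1.19 ± 0.21 (limma adjusted p = 0.00889), lost in 6 of 17. The other 20 Otx2/Wls cells of e14 replicate 2 averaged 11.2 CPM of Folr1, 118 CPM of Calml4 and 0 of Enpp2. Of 6 choroid plexus genes tested, 3 were higher and 1 was lower, with a median of 1.16. Prlr and Cldn5 were at 0 in Otx2/Wls cells, and Htr2c and Slc4a5 were detected in 1 and 2 cells. Without the Ttr-rich cell limma called 235 genes higher and 344 lower.

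Within the 273 cells, joint detection of Wnt ligands and R-spondins was counted. A UMI of Wnt1, Wnt3a or Wnt9a was detected in 216 Otx2/Wls cells (79.1%) and in 16.9% of Msx3 progenitors. An R-spondin UMI was detected in 149 (54.6%) and in 6.17% of Msx3 progenitors, and both kinds in 140 (51.3%) and in 3.70%. The share expected from independent detection of these kinds was not computed, and the part of depth was not tested. Rspo1, Rspo2 and Rspo3 were detected in 83, 112 and 48 cells, and all 3 in 24 cells (8.79%), 13 and 2 of them in the e14 libraries and 0 and 9 in the e13 libraries. In Barhl1-positive cells without Sox2 Wnt1 was detected in 2.32%, Rspo1 in 0.725% and Rspo2 in 1.59% of cells. Thinned to 8000 UMIs (264 of 273 Otx2/Wls cells and 1019 of 1054 Msx3 progenitors were deep enough), Wnt1 was detected in 61.0% of Otx2/Wls cells and 7.46% of Msx3 progenitors. Rspo2 was then detected in 24.6% of Otx2/Wls cells and 0.196% of Msx3 progenitors.

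A further division ran along Atoh1, chosen after the values had been seen and described with no test. Atoh1 was detected in 114 cells (41.8%), 39 and 3 of them in the e14 libraries and 28 and 44 in the e13 libraries. In the 3 libraries with at least 10 cells on either side (e14 replicate 1, e13 replicate 1 and e13 replicate 2, in that order), Gadd45g, a growth arrest gene, stood at 545, 193 and 373 CPM in cells with Atoh1 and 73.0, 15.6 and 36.9 CPM in cells without it. Hes6, a bHLH factor of cells entering differentiation, stood at 549.8, 370.5 and 601 CPM with Atoh1 and 96.7, 128 and 84.6 CPM without it. Dll1 stood at 53.5, 50.4 and 63.3 CPM with Atoh1 and 3.10, 3.86 and 3.06 CPM without it, so that the sides did not overlap for these 3 genes. Of 8212 genes, 3.74% were higher with Atoh1 and 5.0% lower without overlap over these libraries. Insm1, a zinc finger factor of newborn neurons, was at 22.1, 42.1 and 38.8 CPM with Atoh1 and 0, 0 and 4.29 CPM without it. Rspo1 was the reverse, with 26.2, 68.9 and 30.9 CPM in cells with Atoh1 and 93.9, 129 and 108 CPM in cells without it. Fabp7 was also lower with Atoh1, at 683, 1221 and 1053 CPM against 1449, 1900.0 and 2362 CPM without it. Otx2 itself stood at 488, 284 and 358 CPM with Atoh1 and 369, 224 and 353 CPM without it, and Mki67 at 191, 211 and 286 CPM with it and 157, 336 and 241 CPM without it. Median depth was 18031, 20875 and 18774 UMIs with Atoh1 and 16596, 19726 and 18517 without it.

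**Figure D3:**
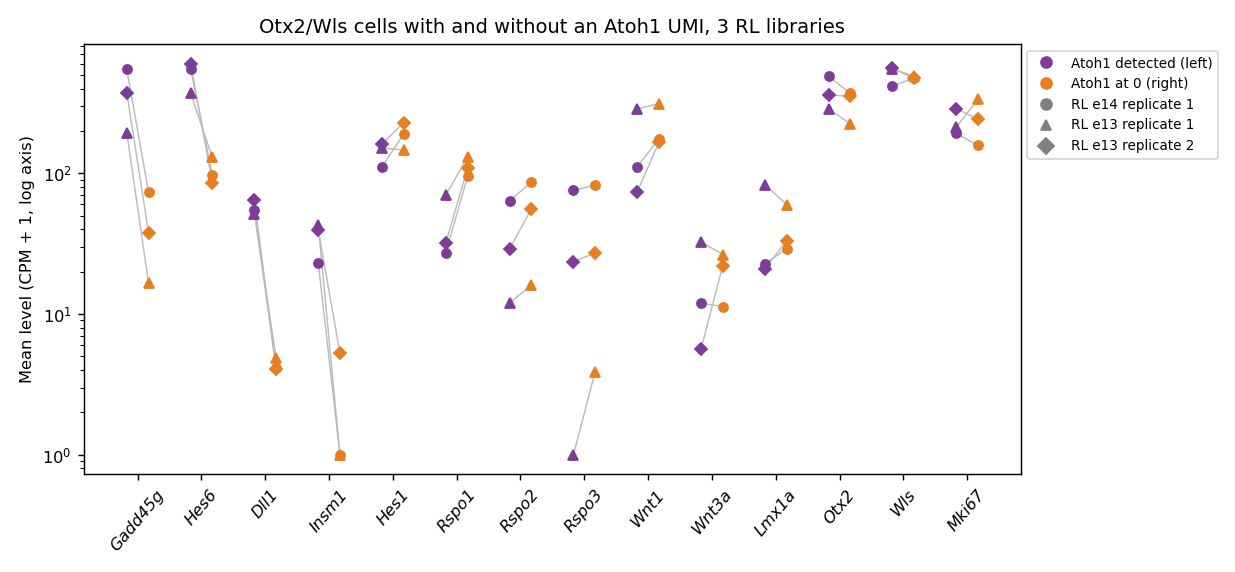
Mean level (vertical axis, CPM + 1 on a log axis) in Otx2/Wls cells with an Atoh1 UMI (left, purple) and without one (right, orange) in 3 RL libraries, with a line joining the sides of a library and no error bars. Dll1 stands at 53.5, 50.4 and 63.3 CPM in cells with Atoh1 and 3.10, 3.86 and 3.06 CPM in cells without it, while Rspo1 slopes the other way.

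Cells with Rspo2 were compared with cells without it in the same way, in e14 replicate 1, e14 replicate 2 and e13 replicate 2. Rspo1 stood at 109.5, 166 and 178 CPM in cells with Rspo2 and 9.87, 0 and 22.9 CPM in cells without it. Wnt3a stood at 17.7, 27.6 and 35.9 CPM with Rspo2 and 2.39, 0 and 3.10 CPM without it. Lmo2 stood at 85.6, 189.6 and 145 CPM with Rspo2 and 16.1, 41.2 and 37.9 CPM without it. All 3 genes were higher on the Rspo2 side in each of these libraries. They were chosen after their values were seen, and the share of all genes that went this way was not counted. Otx2 stood at 491, 477 and 459 CPM with Rspo2 and 344, 247 and 292 CPM without it. Median depth moved with the split, at 18441, 22128 and 21068 UMIs with Rspo2 and 14835, 16761 and 18011 without it, and its part in these values was not tested.

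The e14 and e13 libraries were compared to ask whether the Otx2/Wls cells change over a day of development. limma called 0 of 8286 genes (0.0%) at an adjusted p under 0.05. The lowest adjusted p was 0.508, 661 genes had an unadjusted p under 0.05, and no other tool was run. A test of whether the difference from Msx3 progenitors changes with age also called 0 of 8389 genes (467 with an unadjusted p under 0.05, lowest adjusted p 0.119). Calls appeared when RL e13 replicate 2 was grouped by its age tag, with 22 genes higher and 7 lower at e14. Leaving out e14 replicate 1 gave 44 higher and 64 lower, leaving out e13 replicate 2 gave 14 and 6, and leaving out e13 replicate 1 gave 1 and 1. The values below describe the libraries.

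Rspo2 in Otx2/Wls cells stood at 75.0 and 76.2 CPM in the e14 libraries and 12.3 and 45.3 CPM in the e13 libraries (log2 difference 1.45 ± 0.43, e14 minus e13). Rspo3 stood at 78.2 and 40.6 CPM in the e14 libraries and 0.966 and 24.9 CPM in the e13 libraries (2.21 ± 0.65), and Rspo1 at 63.2 and 87.0 CPM in the e14 libraries and 89.1 and 80.6 CPM in the e13 libraries (-0.18 ± 0.22). Rspo2 and Rspo3 were above both e13 libraries in both e14 libraries and Rspo1 was not, without any of the 3 passing the test. Htra1 stood at 296 and 403 CPM in the e14 libraries and 14.5 and 202 CPM in the e13 libraries, and Calml4 at 86.9 and 169 CPM in the e14 libraries and 6.90 and 36.5 CPM in the e13 libraries. Folr1 stood at 36.5 and 36.7 CPM in the e14 libraries and 9.93 and 12.0 CPM in the e13 libraries. Kdr stood at 91.0 and 109.9 CPM in the e14 libraries and 39.0 and 39.7 CPM in the e13 libraries (log2 difference 1.24 ± 0.21). In these 4 genes both e14 values lay above both e13 values, which was so for 14.5% of 8286 genes (26.8% had both below). However, without the Ttr-rich cell Folr1 in e14 replicate 2 was 11.2 CPM, below e13 replicate 2.

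Several other genes were highest in e13 replicate 1. Olig3 stood at 18.9 and 1.47 CPM in the e14 libraries and 129 and 30.9 CPM in the e13 libraries. Lmx1a stood at 25.2 and 20.8 CPM in the e14 libraries and 74.4 and 27.8 CPM in the e13 libraries, and Msx1 at 32.1 and 86.6 CPM in the e14 libraries and 168 and 44.2 CPM in the e13 libraries. Wnt1 stood at 145 and 139 CPM in the e14 libraries and 294 and 132 CPM in the e13 libraries. For these 4 genes e13 replicate 1 was the highest library, and for Msx1 the next highest was e14 replicate 2. They were picked after their values were seen, and the share of all genes highest in that library was not counted. Among neuronal genes, Ncam1, a neural adhesion protein, and the microtubule protein Map2 were also highest in e13 replicate 1. Ncam1 stood at 125 and 141 CPM in the e14 libraries and 410.3 and 149 CPM in the e13 libraries. Map2 stood at 60.9 and 38.3 CPM in the e14 libraries and 235 and 101 CPM in the e13 libraries. The sum of 12 neuronal differentiation genes ranged from 375 to 1295 CPM over the 4 libraries. Of the 9 neuronal genes tested by age, 0 had a positive log2 difference of e14 minus e13, against 3489 of 8286 genes in all. Their part in the values above was not tested.

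The ribosomal protein gene Rpl26 also differed by library, with 1212 and 1382 CPM in the e14 libraries and 16.2 and 242 CPM in the e13 libraries in Otx2/Wls cells, and with 821, 1001, 30.1 and 236 CPM in Msx3 progenitors. It was named after its values were seen. In Otx2/Wls cells, 8 genes of e13 replicate 1 were over 4-fold above and 9 over 4-fold below all other libraries. In e14 replicate 2 these counts were 13 and 5, in e13 replicate 2 they were 1 and 0, and in e14 replicate 1 they were 0 and 0. What sets the libraries apart was not tested.

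**Figure D4:**
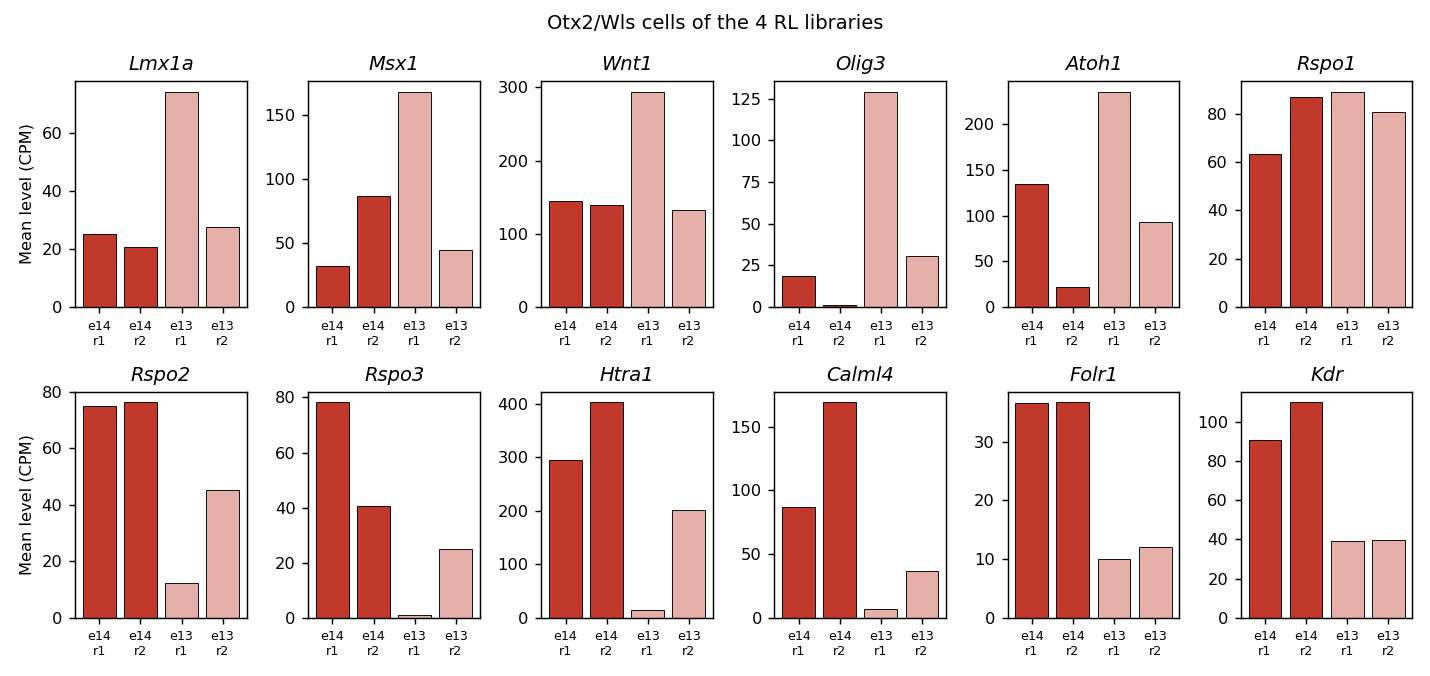
Mean level of 12 genes (vertical axes, CPM from 0, a scale per gene) in Otx2/Wls cells of the 2 e14 libraries (left, dark) and the 2 e13 libraries (right, light), r1 and r2 being the replicates, with 1 bar per library and no error bars. Kdr is higher in both e14 bars (91.0 and 109.9 CPM of Kdr at e14, 39.0 and 39.7 at e13), while Olig3 and Lmx1a are highest in e13 replicate 1, with no limma call by age.

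The EomesCreER e16 library was looked at with the same gates and no test, being a single library. Of its 2676 cells, 2 met the Otx2/Wls gate and 3 met the Msx3 gate, and 9 were Sox2-positive and Barhl1-negative in all. EomesCreER names, by convention, an inducible Cre under control of Eomes. The labels do not say how cells were sorted.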

How the data were processed

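Single cells of mouse cerebellum were captured with 10x Chromium v3 and v3.1 kits, per the labels' protocols, and Cell Ranger and mm10 are named in the submitters' processing notes. The authors deposited natural log values for 15971 genes and 6987 cells. Back-transformed, these were ln(1 + 10000 × UMI count / total of the cell), and 100% of values gave whole UMI counts (tolerance 0.01). A second deposited file gave each cell's library. The batch without a matching title was taken as the EomesCreER library. Filters and doublet removal before deposit are not stated, and no doublet caller was run.

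The members, gene lists and comparisons were chosen with earlier results of these data known. Back-transformed values were averaged over cells per class and library with 20 or more cells and scaled to 1000000 (CPM). limma 3.58.1 (trend, R 4.3.3) was run on log2(CPM + 5), which understates changes of low genes, for genes averaging at least 10 CPM, with Benjamini-Hochberg adjustment over all genes tested. The planned unit was the one found. The 5 gate genes were removed before the fit. Otx2/Wls cells and Msx3 progenitors were paired by library (library block), since both come from the same libraries. Each fit was also run on simulated profiles with added changes, as a check of the fit. These profiles had no differences between libraries, so the check cannot speak to libraries that differ.

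Named genes were the gate genes and markers of the label, the 10 highest and 10 lowest log2 differences among called genes that went the same way in all libraries and reached 50 CPM in the higher class, members of the roof plate, choroid plexus, BMP, Wnt and R-spondin lists, and up to 4 called genes of other lists. Genes named beyond this rule (Atoh1, Olig3, Mki67, Sox9, Vim, Dll1, Mycn, Myc, Fos, Ncam1, Map2, Barhl2, Spry1, Pecam1, Pdgfra, Rpl26 and those in the divisions by Atoh1 and Rspo2) were chosen after their values were seen. Some genes that meet the rule are not reported here. Promoters come from RefSeq (GRCm38.p6) and exons from GENCODE. Alternatives were median-of-ratios scaling, pseudocounts of 1 and 20, other filters, summed UMIs, thinning to 8000 UMIs, removal of the 5% of cells with most UMIs, gates of 2 UMIs, other comparison cells, removal of Atoh1 or cycling cells, the age tag, the block and each library left out. Removal of the Ttr-rich cell was added after seeing the data.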

Additional observations from a re-analysis of the deposited data

Results flagged for a closer look

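Of 89 genes examined over the 4 libraries of Otx2/Wls cells minus Msx3 progenitors, 1 had a library far from the others. The log2 difference of Ttr was 9.85 in e14 replicate 2, while the other 3 libraries lay between -0.48 and -0.04. About 1 in 20 such groups of 4 is set apart in this way by chance. A single cell of that library held 4043 Ttr UMIs. The other 20 Otx2/Wls cells of the library averaged 4.59 CPM of Ttr.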

How the results depend on the processing

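For Otx2/Wls cells against Msx3 progenitors (229 genes higher, 341 lower), the counts were 109 and 160 with a filter of 50 CPM, 111 and 169 with no filter, 136 and 207 after thinning to 8000 UMIs, 492 and 599 without Atoh1 cells and 65 and 117 without cycling cells. Without the pairing by library (no replicate block), 106 and 135 genes were called, and all 241 were also called with it. Leaving out 1 library gave 88 to 379 higher and 151 to 471 lower. Of the 81 called genes named, 53 were called without the block, 54 with no filter, 49 without cycling cells and 57 without e13 replicate 2. Of the genes named above without such a count, Ccnd1, Nog and Erbb4 lost the call in 1 setting, Fzd10, Ror2, Dusp6 and Cdk6 in 2, Tcf7l2 in 3, Tnfrsf19 and Sncaip in 5, Jun in 7, Junb in 8 and Mfap4 in 11. Sox9, Vim and Mycn are not among the 81 genes, and their calls were not followed through the settings. The Id4 difference reversed to 0.32 without cycling cells, and that of Mki67 to -0.10 without Atoh1 cells and -0.051 without the 5% of cells with most UMIs. For e14 against e13 (0 and 0), the age tag gave 22 and 7, thinning 26 and 30, leaving out the 5% of cells with most UMIs 19 and 27, and leaving out 1 library 0 to 44 and 0 to 64. With the replicate number as a block the counts were 47 and 50, but the numbers are only names, and same-numbered deviations correlated at r = 0.0347. In this comparison Rspo1 ranged from -0.40 to 0.036, Msx1 from -1.57 to 0.24 and Wnt1 from -1.02 to 0.10 with 1 library left out, turning positive without e14 replicate 1 (Rspo1) and without e13 replicate 1 (Msx1 and Wnt1). For the change of the class difference with age (0 and 0), the age tag gave 14 and 18, thinning 3 and 13, leaving out the 5% of cells with most UMIs 16 and 36, and leaving out 1 library 0 to 28 and 0 to 57. The share of Otx2/Wls cells differed by -0.86 percentage points (e14 minus e13), by 0.00982 with the age tag, by 14.8 among Sox2-positive, Barhl1-negative cells, and by -3.55 to 1.84 with 1 library left out. Of the comparisons of single genes with Msx3 progenitors under the alternatives, 1344 kept direction and side of the threshold, 191 lost the call, 16 gained it and 3 reversed.

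Thinning, leaving out the deepest cells and gates of 2 UMIs drop e14 replicate 2, which then has under 20 Otx2/Wls cells. Leaving out Atoh1 cells or cycling cells keeps 2 libraries. A lone library of an age is assumed to vary like the other age. The cause of the changes was not tested. Depth limits statements on genes near 0, and 21 cells in e14 replicate 2 limit its means.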
